A study of Mus musculus with 18 samples.

Results

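The genotype comparison at 48 h of LPS set splenic B cells lacking *Zbtb24* (Zbtb24 B-CKO, below B-CKO) against control cells (CON), with 3 libraries in each group. Its genes were those with a mean of at least 1 FPKM, a fragment count scaled to transcript length and library size, over these 6 libraries, which held for 9857 of the 16545 genes in the table. The B-CKO genotype is given by the study's methods as a B cell-specific Cre (1 Cre allele) with both *Zbtb24* alleles floxed (Zbtb24 loxp/loxp), so that exon 2 with the translation start is removed in B cells. The controls are described there as littermates with the same Cre and intact *Zbtb24* (Zbtb24 +/+), whereas the labels give them only as CON, and the table does not show their Cre genotype. All 6 cultures held purified splenic B cells in LPS for 2 days (48 h), and the age and sex of the mice and the LPS dose of these cultures are not given in the sources used here. By the study's methods each replicate of splenic B cells came from a mouse of its own, and the labels number the libraries 1 to 3 in each group without saying whether a number pairs mice.

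ZBTB24 is a zinc finger protein that binds DNA and acts as a transcriptional activator, and its loss in people causes ICF syndrome type 2, with immunodeficiency, centromere instability and facial anomalies. The other genes of the syndrome are *DNMT3B*, a DNA methyltransferase, *CDCA7*, *HELLS*, a chromatin remodeller that works with CDCA7, and *UHRF1*, which recognises hemimethylated DNA. LPS activates mouse B cells through TLR4, after which they grow, divide, and partly become antibody-secreting plasmablasts or switch their antibody class. The comparison asks which genes differ between the genotypes once these cells have been in LPS for 48 h.

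At 48 h most genes stood at like levels in both genotypes, and a few genes were far lower in B-CKO cells, led by *Cdca7*. Of the 9857 genes, 9502 (96.4%) differed by less than 1.2-fold between the group means on the log2(FPKM + 1) scale, 25 differed by more than 1.5-fold and 5 by more than 2-fold. The median log2 fold change was -0.01, and the 1st and 99th percentiles were -0.34 and 0.31. Limma was run on every gene detected in at least 1 of the 6 libraries (15210), and 7 genes had a Benjamini-Hochberg adjusted p under 0.05, which is 0.0460% of those tested. Of these, 6 were among the 9857 genes and were lower in B-CKO cells, and 5 of them are described here, namely *Cdca7*, *Ostc*, *Taf6*, *Cdc40* and *Rnf187*. The last was *Fgf22*, a growth factor gene below 1 FPKM, which was listed at 0 in each CON library and at 0.12 FPKM in each B-CKO library (limma adjusted p = 0.0495). Limma on the 9857 genes alone gave 29 calls, 17 lower in B-CKO cells (0.172%) and 12 higher (0.122%), which include the same 6. Without the library of B-CKO replicate 1 the count over all genes was 0, with 881 genes at an unadjusted p under 0.05, and on the 9857 genes alone it was 7.

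**Figure D1:**
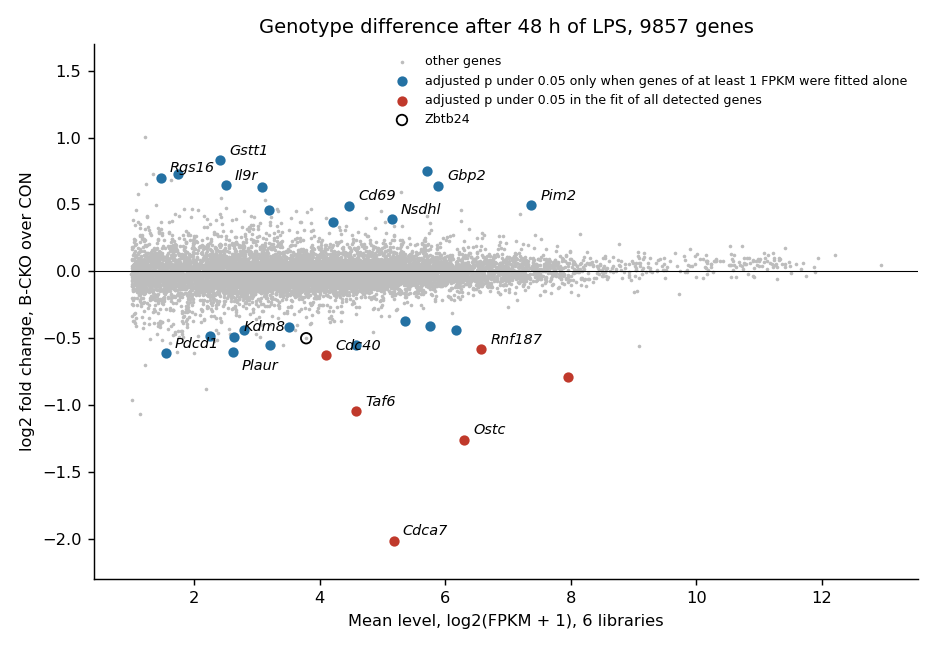
Each point is 1 of 9857 genes, with the mean of its 6 libraries as log2(FPKM + 1) on the x axis and the log2 fold change of B-CKO over CON at 48 h on the y axis, and colours mark genes past an adjusted p of 0.05 in limma. The 6 genes called over all genes lie below 0, *Cdca7* lowest at -2.02, whereas the genes called only in the narrower fit lie on both sides, up to 0.83 for *Gstt1*.

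The 6 libraries were alike in their correlations and in the number of genes that reached 1 FPKM. Pearson correlations of log2(FPKM + 1) across genes were 0.994 to 0.997 within and 0.993 to 0.996 between the groups. Between 9787 and 9894 genes reached 1 FPKM per library. The relative depth read from 80 low genes ranged from 0.998 to 1.05, with each gene set against the geometric mean of its own values above 0. These genes were kept because those values lay close together, so a wide range of depth could not show in them. The median SD between replicates was 0.074 in CON and 0.085 in B-CKO on the log2 scale. B-CKO replicate 3 lay farthest out on the first principal component (12.9, against -7.99 for CON replicate 2 at the other end), which took 36.4% of the variance. The B cell label fitted the table, with 13 of 13 B cell markers among the 9857 genes and summed levels of 3450 to 3668 FPKM in CON and 3432 to 3788 FPKM in B-CKO libraries.

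*Zbtb24* itself (gene ID 268294, chr10:41450358-41465582, mm10) was at 13.4, 17.1 and 14.9 FPKM in the CON libraries and at 10.6, 9.23 and 11.3 FPKM in the B-CKO libraries. The groups did not overlap, and the lowest CON library stood close above the highest B-CKO library. The B-CKO mean was 0.686 of the CON mean, a log2 fold change of -0.50 (SE 0.10) with a limma adjusted p of 0.267, and of 0.0696 when the 9857 genes were fitted alone. An exact permutation test of this gene gave a two-sided p of 0.1, the smallest that 3 libraries against 3 allow. Fragments from exons other than the deleted exon 2 still count towards this value, so that it does not measure how many cells had lost the exon.

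*Cdca7* (gene ID 66953, chr2:72476187-72486892), the ICF syndrome gene that recruits HELLS to chromatin, had the lowest B-CKO to CON ratio of the called genes. It was at 56.8, 64.6 and 49.6 FPKM in CON and at 14.5, 14.2 and 11.3 FPKM in B-CKO libraries. Each CON library held more than 3 times the level of any B-CKO library. The B-CKO mean was 0.234 of the CON mean, with a log2 fold change of -2.02 (SE 0.12, limma adjusted p = 0.00589).

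*Ostc* (gene ID 66357, chr3:130695920-130709440) encodes a subunit of the oligosaccharyltransferase, the enzyme complex that attaches N-glycans to proteins entering the endoplasmic reticulum (ER). It was at 117, 99.1 and 116 FPKM in CON and at 44.3, 42.9 and 49.4 FPKM in B-CKO libraries, so that the groups stood far apart. The log2 fold change was -1.26 (SE 0.080, limma adjusted p = 0.00589). *Taf6* (gene ID 21343, chr5:138178620-138187450) encodes a subunit of TFIID, the general factor that recognises core promoters. Its levels were 31.4, 33.9 and 28.4 FPKM in CON and 13.9, 15.1 and 14.7 FPKM in B-CKO libraries, a spread of under 1.2 FPKM among the latter. The log2 fold change of *Taf6* was -1.05 (SE 0.070, limma adjusted p = 0.00621).

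*Cdc40* (gene ID 71713, chr10:40831621-40883143) encodes a splicing factor of the second catalytic step, also known as PRP17. It was at 20.4, 20.1 and 19.06 FPKM in CON and at 11.9, 12.9 and 12.8 FPKM in B-CKO libraries. Both groups were tight and lay wide of each other, and the log2 fold change was -0.63 (SE 0.053, limma adjusted p = 0.0251). *Rnf187* (gene ID 108660, chr11:58932288-58938906) encodes a RING finger ubiquitin ligase. It was at 119.6, 114 and 106 FPKM in CON and at 76.7, 72.3 and 76.4 FPKM in B-CKO libraries, again with no overlap. Its log2 fold change was -0.58 (SE 0.053, limma adjusted p = 0.0319). With a library left out the fold changes of these 5 genes moved little, while several adjusted p values rose above 0.05 in the fit over all genes. The log2 fold change stayed between -2.11 and -1.91 for *Cdca7*, -1.34 and -1.22 for *Ostc*, -1.11 and -0.99 for *Taf6*, -0.66 and -0.59 for *Cdc40*, and -0.63 and -0.54 for *Rnf187*. Leaving out any 1 of the 6 libraries ended the calls of *Cdc40*, *Rnf187* and *Fgf22*, with limma adjusted p between 0.103 and 0.205, 0.0609 and 0.263, and 0.153 and 0.335. Leaving out CON replicate 1, B-CKO replicate 1 or B-CKO replicate 2 took *Cdca7* to 0.0833, 0.0561 and 0.0691, *Ostc* to 0.0833, 0.0735 and 0.0691 and *Taf6* to 0.108, 0.0735 and 0.0691, and *Ostc* was also at 0.0609 without CON replicate 3. With all 6 libraries, *Rnf187* was also not called with median ratio scaling (limma adjusted p = 0.0682), without a filter (0.0906) or without the trend (0.0788). A block for the replicate number took *Taf6*, *Cdc40*, *Rnf187* and *Fgf22* to limma adjusted p values of 0.127, 0.267, 0.248 and 0.324, with their fold changes unchanged.

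**Figure D2:**
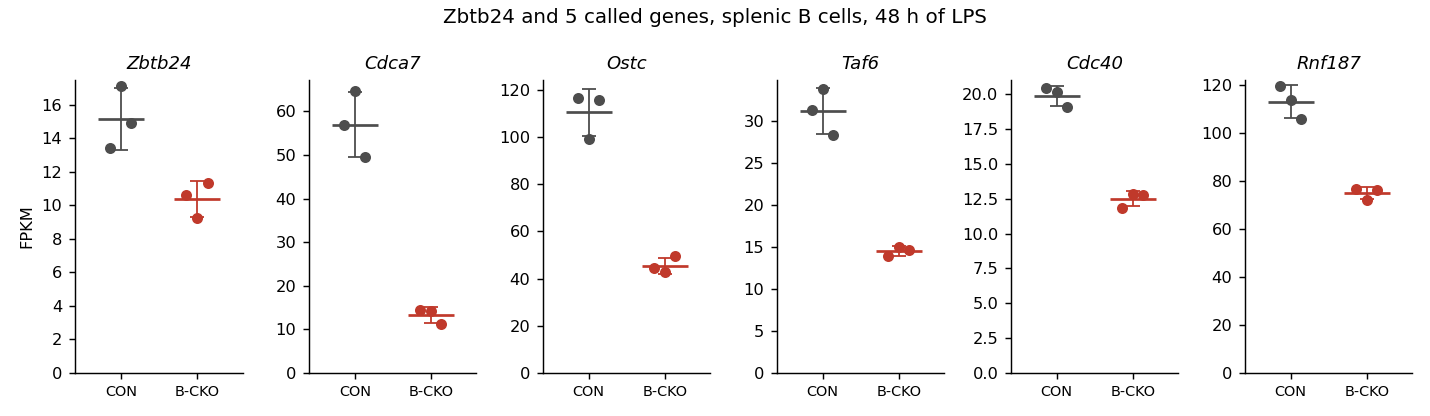
FPKM per library at 48 h of LPS for *Zbtb24* and 5 called genes in CON (grey) and B-CKO (red) cells, each panel with its own y axis from 0, where points are libraries, the horizontal bar is the mean and the error bar the SD (n = 3). In every panel the 3 B-CKO libraries lie below the 3 CON libraries, from 0.234 of the CON mean for *Cdca7* to 0.686 for *Zbtb24*.

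The promoters of these genes were read for the 8-base motif CAGGACCT, known as a ZBTB24 binding sequence, and its reverse complement AGGTCCTG. RefSeq windows on GRCm38.p6 (the assembly also called mm10), from 250 bases before to 50 after a transcript start, were at hand for *Cdca7*, *Taf6*, *Cdc40* and *Rnf187*. Each of these 4 held the motif, whereas 1.99% of all 32851 windows and 1.92% of the 8057 compared genes with a window did. Among the 21 genes called in the narrower fit that had a window, these same 4 held it. The motif was taken from the literature, and whether these promoters were among its sources was not checked here. The shares are a description and not a test. The windows are shown because they carry the called genes' matches, each in the direction of transcription with matches in capitals. They lie at chr2:72475969-72476268 on the plus strand (*Cdca7*) and, on the minus strand, at chr5:138187177-138187476 (*Taf6*), chr10:40883094-40883393 (*Cdc40*) and chr11:58938857-58939156 (*Rnf187*).
Cdca7: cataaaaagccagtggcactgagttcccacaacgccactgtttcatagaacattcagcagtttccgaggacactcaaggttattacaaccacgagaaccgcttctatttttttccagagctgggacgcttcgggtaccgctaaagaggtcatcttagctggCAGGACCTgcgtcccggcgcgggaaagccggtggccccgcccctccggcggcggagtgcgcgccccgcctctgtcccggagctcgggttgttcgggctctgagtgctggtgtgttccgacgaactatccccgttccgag
Taf6: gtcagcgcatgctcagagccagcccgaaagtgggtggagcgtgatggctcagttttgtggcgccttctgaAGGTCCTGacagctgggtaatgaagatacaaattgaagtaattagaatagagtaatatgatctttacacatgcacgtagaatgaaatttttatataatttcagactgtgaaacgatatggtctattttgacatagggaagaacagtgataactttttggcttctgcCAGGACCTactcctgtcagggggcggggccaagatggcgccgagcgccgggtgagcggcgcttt
Cdc40: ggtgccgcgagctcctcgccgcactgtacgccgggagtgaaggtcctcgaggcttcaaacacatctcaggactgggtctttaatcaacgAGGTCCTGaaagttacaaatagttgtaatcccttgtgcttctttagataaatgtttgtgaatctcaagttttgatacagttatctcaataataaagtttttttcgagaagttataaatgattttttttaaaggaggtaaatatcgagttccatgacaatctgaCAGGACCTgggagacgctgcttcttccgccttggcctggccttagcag
Rnf187: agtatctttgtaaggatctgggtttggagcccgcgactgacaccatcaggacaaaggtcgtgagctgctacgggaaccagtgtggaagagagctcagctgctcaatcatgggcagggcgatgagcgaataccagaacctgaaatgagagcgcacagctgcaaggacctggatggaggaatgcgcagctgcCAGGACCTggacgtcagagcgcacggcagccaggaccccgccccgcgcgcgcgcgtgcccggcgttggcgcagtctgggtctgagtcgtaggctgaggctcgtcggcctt

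Counted from the transcript start (position 0), the first base of the motif lay at -89 in *Cdca7* and at -60 in *Rnf187*, both forward. *Taf6* held a match on each strand, reverse at -180 and forward at -14, and *Cdc40* likewise, reverse at -161 and forward at 2. A second RefSeq start of *Taf6* farther upstream had a window without the motif. *Zbtb24* had none in its own window. *Cnpy4*, a canopy family gene read in the opposite direction from the same stretch of chromosome 5 (its window overlaps that of *Taf6* and holds the match at -136), was chosen for mention after its values were seen. It was at 12.6, 13.6 and 12.7 FPKM in CON and at 10.4, 8.69 and 8.97 FPKM in B-CKO libraries, with no overlap, and its log2 fold change was -0.44 (SE 0.077, limma adjusted p = 0.178).

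The 155 compared genes with the motif include the 4 called genes just described. Their median log2 fold change was -0.02, against -0.01 for the 7902 genes with a window and no motif. Of the 155 genes, 15 (9.68%) were lower in B-CKO cells at an unadjusted p under 0.05 and 6 were higher, while without the motif these counts were 315 (3.99%) and 309. The 3 B-CKO libraries lay below all CON libraries for 20 of them (12.9%) and for 563 of the others (7.12%). Without the 4 called genes, 151 genes with the motif had a median of -0.01, with 11 lower (7.28%) and 6 higher, and all B-CKO libraries lay below all CON libraries for 16 of them (10.6%). Over all 9857 genes, 423 (4.29%) were lower and 381 (3.87%) higher at an unadjusted p under 0.05 (430 and 260 after rescaling to TPM, which sets each library to the same sum, 360 and 438 with median ratio scaling, 266 and 196 in a fit of all 18 libraries, 278 and 255 without B-CKO replicate 1, and 760 and 492 without B-CKO replicate 2), and 7.55% had all B-CKO libraries below and 6.04% above all CON libraries. A match is a string of letters only, and binding was not measured here.

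*Zbtb24* had 10 compared genes within 1 Mb, *Cdc40* among them at a distance of 567215 bp. Apart from *Cdc40*, 0 of the 10 had an adjusted p under 0.05, and at an unadjusted p under 0.05 there were 2 lower (*Cdc40* and *Foxo3*, log2 fold change -0.20) and 3 higher, *Sesn1* (0.24), *Cep57l1* (0.23) and *Afg1l* (0.29), whereas over all genes the shares were the 4.29% and 3.87% given above. The median of the 10 was 0.06.

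B cell receptor (BCR) signalling genes, like all compared genes, had more negative than positive values. Of 30 genes in the list, 21 were negative and 9 positive with a median of -0.04. Over all 9857 genes, 5534 were negative and 4323 positive (6420 and 3437 with TPM, 4935 and 4922 with median ratio scaling). The list itself had 22 and 8 with TPM, and 19 and 11 with median ratio scaling. At an unadjusted p under 0.05, 8 of the 30 were lower and 1 higher, against 4.29% and 3.87% of all genes. The count of 8 was 3 in the fit of all 18 libraries and without B-CKO replicate 1, settings that also had fewer such genes among the 9857, and 4 without CON replicate 2 or CON replicate 3. *Ptpn6*, the SHP-1 phosphatase, had a log2 fold change of -0.17 and *Cr2*, the complement receptor CD21, one of 0.20 (limma adjusted p = 0.45 and 0.448). The signalling chains *Cd79a* and *Cd79b* overlapped between groups, each at 0.11.

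Further genes were called as lower only when the 9857 genes were fitted alone. *Plaur*, the urokinase receptor, was at 6.40, 6.20 and 6.54 FPKM in CON and at 3.60, 3.78 and 4.18 FPKM in B-CKO libraries (log2 fold change -0.61, SE 0.076, limma adjusted p = 0.101 over all genes and 0.0111 in the narrower fit). *Snn*, which encodes the small membrane protein stannin, was at 61.7, 58.3 and 62.7 FPKM against 45.2, 43.9 and 47.8 FPKM (log2 fold change -0.41, SE 0.047, limma adjusted p = 0.0786 and 0.015). Neither gene overlapped between the groups.

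*Pdcd1*, the inhibitory receptor PD-1, was at 2.30, 2.84 and 2.47 FPKM in CON and at 1.26, 1.14 and 1.55 FPKM in B-CKO libraries (log2 fold change -0.61, SE 0.097, limma adjusted p = 0.167 and 0.0423). *Dtx1*, a regulator of Notch signalling typical of marginal zone B cells, was at 45.3, 44.8 and 46.0 FPKM against 32.5, 34.6 and 37.6 FPKM (log2 fold change -0.37, SE 0.056, limma adjusted p = 0.163 and 0.0411). *Lck*, a SRC-family kinase best known from T cells, was at 12.1, 12.2 and 11.7 FPKM against 8.67, 8.11 and 9.51 FPKM (log2 fold change -0.42, SE 0.068, limma adjusted p = 0.167 and 0.0423). *Kdm8*, which encodes a JmjC-domain hydroxylase, was at 6.28, 6.34 and 6.22 FPKM against 4.33, 4.37 and 3.86 FPKM (log2 fold change -0.49, SE 0.073, limma adjusted p = 0.159 and 0.0284). All 4 genes were lower in every B-CKO library than in any CON library. The same narrower fit also called *Zfp385a* (-0.55), *Dusp10*, a MAP kinase phosphatase (-0.49), *Egr3*, an immediate early transcription factor (-0.44), and *Fcmr*, the IgM Fc receptor (-0.44), genes named after their values were seen. When each library was left out in turn, *Plaur* and *Snn* passed in the narrower fit in 3 of 6 cases, *Pdcd1*, *Dtx1*, *Lck*, *Kdm8*, *Zfp385a*, *Dusp10* and *Fcmr* in 1 and *Egr3* in 0. Of the genes next in order of p, *Sirpa*, an inhibitory receptor of myeloid cells (-0.51), and *5031439G07Rik* (-0.26) were lower in every B-CKO library but were not called in either fit. *Il4ra*, the IL-4 receptor alpha chain, named after its values were seen, was not called either, at 26.9, 24.9 and 24.7 FPKM in CON and at 20.6, 19.5 and 20.7 FPKM in B-CKO libraries (log2 fold change -0.32, SE 0.050, limma adjusted p = 0.167), with no overlap.

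On the other side, *Gbp2*, an interferon-induced guanylate-binding GTPase, had the smallest p among those of the 9857 genes that were higher. It was at 45.2, 47.0 and 43.7 FPKM in CON and at 63.9, 73.7 and 76.4 FPKM in B-CKO libraries. The lowest B-CKO library stood well clear of the highest CON library, and the log2 fold change was 0.64 (SE 0.070, limma adjusted p = 0.0697 over all genes and 0.00299 in the fit of the 9857 genes alone). Leaving out any 1 library, *Gbp2* and the 6 called genes kept an adjusted p under 0.05 in that narrower fit, whereas over all genes *Gbp2* stood between 0.0561 and 0.391.

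*Cd69*, an early activation marker of lymphocytes, was at 16.5, 17.5 and 18.5 FPKM in CON and at 23.3, 24.4 and 27.2 FPKM in B-CKO libraries (log2 fold change 0.49, SE 0.070, limma adjusted p = 0.159 and 0.0219), with no overlap.

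*Il9r*, the IL-9 receptor, was at 3.3, 3.1 and 3.89 FPKM in CON and at 5.57, 6.07 and 6.11 FPKM in B-CKO libraries (log2 fold change 0.65, SE 0.091, limma adjusted p = 0.159 and 0.015). *Rgs16*, which quenches G-protein signalling, was at 1.07, 1.07 and 1.17 FPKM against 2.42, 2.17 and 2.68 FPKM (log2 fold change 0.70, SE 0.078, limma adjusted p = 0.0697 and 0.015). *Gstt1*, a glutathione transferase, was at 2.67, 2.45 and 3.39 FPKM against 5.39, 5.22 and 6.90 FPKM (log2 fold change 0.83, SE 0.13, limma adjusted p = 0.167 and 0.0183). These 3 genes were low in both groups, and each B-CKO library exceeded each CON library. *Pim2*, a survival kinase named here after its values were seen, was far more abundant, at 124, 143 and 142 FPKM in CON and at 212, 181 and 184 FPKM in B-CKO libraries (log2 fold change 0.49, SE 0.081, limma adjusted p = 0.167 and 0.0296). Smaller values with no overlap between groups were those of *Prxl2a* (0.37, called in the narrower fit), the transcription factor gene *Stat4* (0.34) and the dehydrogenase gene *Idh1* (0.30), the last 2 not called in either fit. With each library left out in turn, *Cd69*, *Il9r*, *Rgs16* and *Gstt1* passed in the narrower fit in 4 of 6 cases, *Pim2* in 3, *Nsdhl* (described next) in 2 and *Prxl2a* in 1.

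The compared cholesterol synthesis genes all lay on the higher side. SREBP2 drives these genes when sterols run low, and dividing cells draw on the pathway for new membrane. Of 25 genes, 24 were compared, all 24 had a positive log2 fold change, and the median was 0.22, against -0.01 for all 9857 genes, of which 4323 were positive. Over all genes 0 of the 24 had a limma adjusted p under 0.05, but 19 were higher at an unadjusted p under 0.05 and 16 had all B-CKO libraries above all CON libraries. Those counts compare with 3.87% and 6.04% of all genes. The count of 19 was 8 in a fit of all 18 libraries and 12, 12 and 11 without CON replicate 1, CON replicate 3 and B-CKO replicate 1, and over the settings tried 22 to 24 genes were positive with a median between 0.18 and 0.28.

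*Nsdhl*, a sterol dehydrogenase and the member with the smallest p, was at 29.0, 31.0 and 29.3 FPKM in CON and at 39.4, 37.2 and 41.3 FPKM in B-CKO libraries. Its groups lay clear of each other, with a log2 fold change of 0.39 (SE 0.051, limma adjusted p = 0.123, and 0.0268 in the fit of the 9857 genes alone). *Mvd*, the mevalonate decarboxylase, was at 63.7, 67.0 and 65.0 FPKM against 89.0, 75.3 and 91.9 FPKM (log2 fold change 0.38, SE 0.075, limma adjusted p = 0.243). *Cyp51*, the lanosterol demethylase, was at 85.8, 93.1 and 83.9 FPKM against 111, 102 and 104 FPKM (log2 fold change 0.27, SE 0.054, limma adjusted p = 0.243). The last reductase of the pathway, *Dhcr7*, had a log2 fold change of 0.25. The early enzyme gene *Hmgcs1* was nearer 0, at 0.19, with groups that overlapped.

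**Figure D3:**
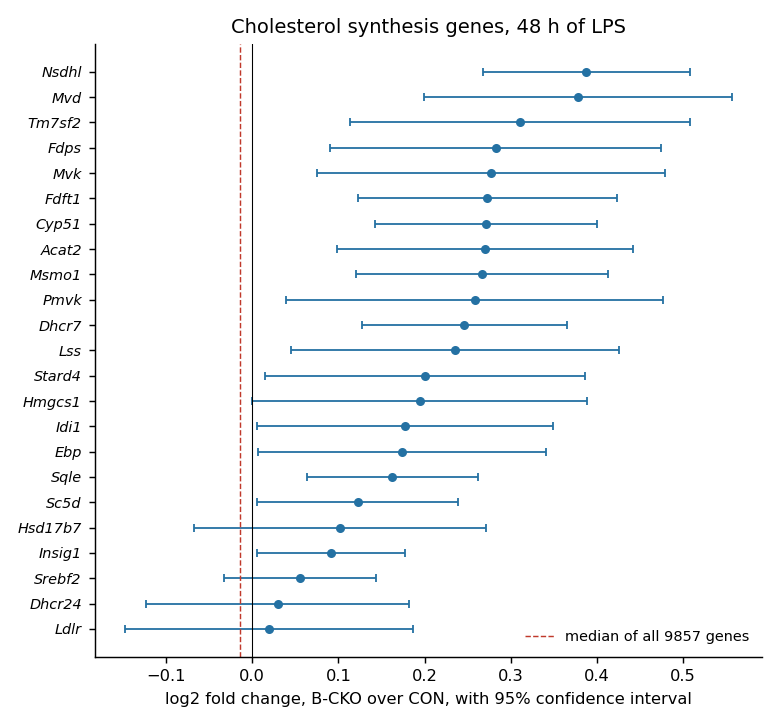
Log2 fold change of B-CKO over CON at 48 h for 23 of the 24 cholesterol synthesis genes, with the 95% confidence interval of each gene from limma (n = 3 libraries per group). All points lie right of 0, and *Nsdhl* and *Mvd* lie farthest out at 0.39 and 0.38.

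Of the interferon-induced genes, the 35 type I interferon-stimulated genes of the list had a median of 0.04 with 26 positive, and 0 calls, whereas 4323 of all 9857 genes were positive. At an unadjusted p under 0.05, 0 were lower and 3 higher (4.29% and 3.87% of all genes). Among the 3 were *Bst2* (0.27) and *Oas1a* (0.40), the last with 20.7, 22.9 and 21.8 FPKM in CON and 23.1, 27.6 and 38.3 FPKM in B-CKO libraries. Without B-CKO replicate 3, which was the highest library for *Oas1a*, 16 of the 35 were positive, with 5 lower and 2 higher, and without B-CKO replicate 1 there were 10 higher. The 8 compared *Gbp* genes, a family taken up after *Gbp2* had been seen, had a median of 0.30, and 5 of them had all B-CKO libraries above all CON libraries, as did 6.04% of all genes. Besides *Gbp2*, these were *Gbp2b* (0.63), *Gbp7* (0.34), *Gbp3* (0.31) and *Gbp5* (0.29), which lie together with *Gbp2* on chromosome 3. *Gbp2b* was called in the narrower fit (limma adjusted p = 0.0411, and 0.195 over all genes), and passed there in 1 of 6 cases with a library left out.

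For activation, costimulation and cytokines the lists held values in both directions, and their counts stand against 4.29% lower and 3.87% higher over all genes. Of 21 activation and costimulatory surface genes, 2 were lower and 4 higher at an unadjusted p under 0.05, with 0 calls over all genes and a median of -0.0035, and the 4 were 2 in the fit of all 18 libraries and without CON replicate 3 or B-CKO replicate 1. The ICOS ligand gene *Icosl* was at 9.41, 7.48 and 7.76 FPKM in CON and at 5.41, 5.45 and 6.08 FPKM in B-CKO libraries (log2 fold change -0.47, SE 0.097, limma adjusted p = 0.267), and *Cd80*, a ligand of CD28, had -0.43. In contrast, *Fas*, the death receptor, had 0.35. Of 14 cytokine and chemokine genes, 1 was lower, *Lta* (-0.23), and 3 were higher, namely *Il16* (0.21) and both genes of the dimer IL-35, *Il12a* and *Ebi3*. *Il12a* was at 8.93, 11.3 and 10.5 FPKM in CON and at 13.3, 12.8 and 14.3 FPKM in B-CKO libraries (log2 fold change 0.37, limma adjusted p = 0.361), and *Ebi3* had a log2 fold change of 0.29 (limma adjusted p = 0.401). The 3 were 1 in the fit of all 18 libraries and 5 without B-CKO replicate 2.

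Among 25 marginal zone, follicular and B1 cell genes, 5 were lower and 4 higher at an unadjusted p under 0.05 (4.29% and 3.87% over all genes), with a median of 0.01. None was called over all genes, and 1, *Dtx1*, was called as lower in the narrower fit. These counts were 2 and 0 in the fit of all 18 libraries, 2 and 3 without B-CKO replicate 1, 4 and 2 without CON replicate 1, and 3 and 5 without CON replicate 3. *S1pr3*, a sphingosine phosphate receptor of marginal zone B cells, was at 3.06, 2.96 and 3.06 FPKM in CON and at 1.73, 2.28 and 1.88 FPKM in B-CKO libraries (log2 fold change -0.45, SE 0.089, limma adjusted p = 0.243). Together with *Dtx1* it was below CON in every B-CKO library, whereas *Cr2* and *Plscr1* (0.21) were above. A change in the share of a B cell subset and a change of expression per cell cannot be told apart in these bulk libraries.

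Genes of antibody secretion showed no call. The 11 plasma cell transcription factor genes had a median of -0.0015 with 0 genes at an unadjusted p under 0.05 (2 lower without CON replicate 2). The 22 plasmablast effector genes had a median of -0.01, with 2 lower, *Sdc1* (CD138) and *Ly6c2*, and 0 higher, against 4.29% and 3.87% of all genes. The 2 were 4 in the fit of all 18 libraries. The effector list rested on single libraries, since without CON replicate 2 it had 7 lower and 0 higher with a median of -0.12, and without CON replicate 3 it had 1 lower and 3 higher with a median of 0.07. *Ly6c2* rested on a single high control, with 8.85, 2.44 and 4.01 FPKM in CON and 1.80, 1.95 and 2.28 FPKM in B-CKO libraries (log2 fold change -0.88, SE 0.35, limma adjusted p = 0.618). Among 30 class switch and end joining genes, 2 were higher and 0 lower at an unadjusted p under 0.05 (3.87% and 4.29% of all genes), with a median of -0.01. Of these genes, 1 was higher in the fit of all 18 libraries and in each fit with a library left out other than B-CKO replicate 3.

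The partners of the called genes in their complexes stayed near even. Among 12 oligosaccharyltransferase subunits, *Ostc* was the only gene lower at an unadjusted p under 0.05 and 0 were higher, against 4.29% and 3.87% of all genes, and the median was 0.03. Among 16 TFIID subunits, *Taf6* was likewise alone, with a median of 0.02, and among 30 splicing factors of the catalytic steps *Cdc40* was alone, with a median of -0.04. Without B-CKO replicate 2 the splicing list had 4 lower and 1 higher and the TFIID list 1 higher, as the TFIID list also had without CON replicate 1. The next lowest genes were *Taf8* (-0.09) among the TFIID subunits and *Prpf8* (-0.16) among the splicing factors, far above the called genes.

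All 5 ICF syndrome genes had negative values, as did 5534 of all 9857 genes, but only *Cdca7* was called. *Uhrf1* had a log2 fold change of -0.08, *Dnmt3b* -0.10 and *Hells* -0.07, with groups that overlapped, and without B-CKO replicate 3 *Dnmt3b* and *Hells* turned to 0.02 and 0.04. Of 21 DNA methylation and demethylation genes, 0 were lower (2 without B-CKO replicate 2) and 2 higher at an unadjusted p under 0.05 (4.29% and 3.87% of all genes), with 0 calls and a median of -0.06. These 2 were *Uhrf2*, the paralog of *Uhrf1*, at 19.6, 20.2 and 21.0 FPKM in CON and 23.8, 24.4 and 23 FPKM in B-CKO libraries (log2 fold change 0.22, limma adjusted p = 0.274), and *Cdca7l*, the paralog of *Cdca7*, at 19.6, 20.7 and 18.7 FPKM against 24.6, 25.9 and 21.6 FPKM (log2 fold change 0.27, limma adjusted p = 0.399). Both lay above CON in all 3 B-CKO libraries (6.04% of all genes did), and 2 others, *Mbd2* and *Zbtb4* (named after their values were seen), lay below (7.55% of all genes). Of the 21, 16 were negative (18 with TPM, 16 with median ratio scaling), against 5534 of all 9857 genes (6420 with TPM, 4935 with median ratio scaling). Of the 27 germline genes that DNA methylation is known to silence, 21 were in the table and 0 of these reached a mean of 1 FPKM. They were thus not among the compared genes, and no genotype difference is given for this list.

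**Figure D4:**
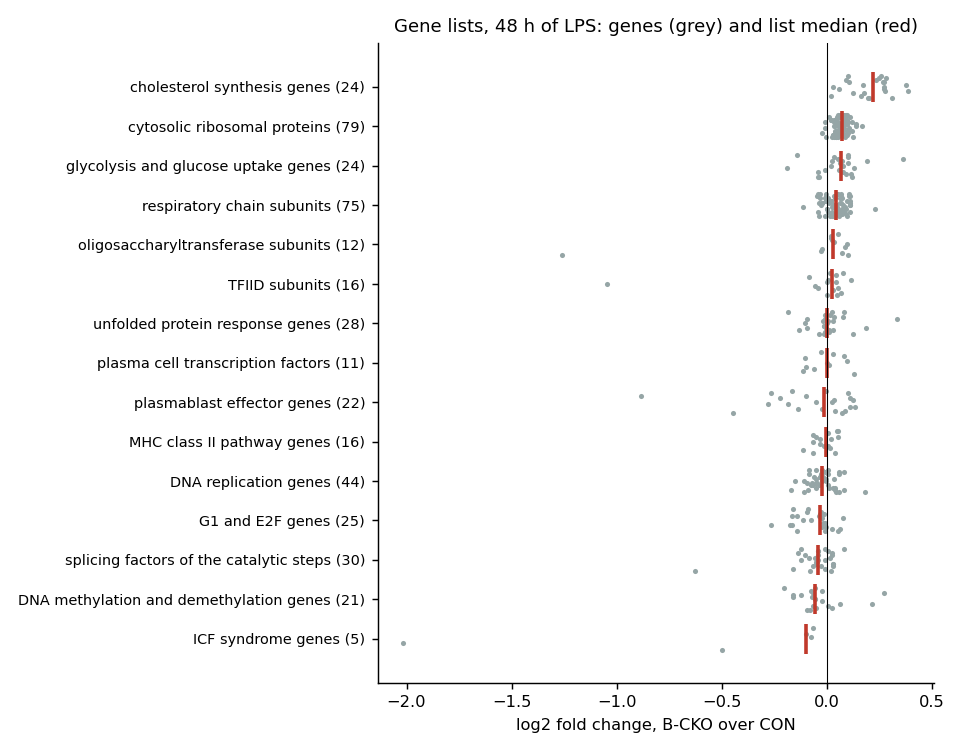
Log2 fold change of B-CKO over CON at 48 h for the compared genes of 15 gene lists, with the number of genes in parentheses, where grey points are genes and the red bar is the list's median. The cholesterol synthesis genes lie furthest right as a list, with a median of 0.22, and the single points far to the left are called genes, except *Ly6c2* at -0.88, *Zbtb24* at -0.50 and *Sdc1* at -0.45.

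Cell cycle lists held 0 calls. Of 25 G1 and E2F genes, 5 were lower and 0 higher at an unadjusted p under 0.05, against 4.29% and 3.87% of all genes, with a median of -0.03. *Ccne1*, the cyclin of S phase entry, was at 33.8, 33.5 and 32.5 FPKM in CON and at 28.3, 27.4 and 26.7 FPKM in B-CKO libraries (log2 fold change -0.27, SE 0.040, limma adjusted p = 0.159), and *E2f2* had a log2 fold change of -0.17. *Ccne1* thus lay lower by a small but even step. The fit of all 18 libraries left 0 of the 25 at this unadjusted threshold, and there were 2 without CON replicate 2 and 3 without B-CKO replicate 1 or B-CKO replicate 3. DNA replication (44 genes) had 1 lower and 1 higher, *Cdt1* (-0.17) and *Rpa3* (0.18), and mitosis and kinetochore (59 genes) 0 lower and 2 higher, with medians of -0.02 and 0.02. Without B-CKO replicate 2 the replication list had 3 lower and 1 higher and the mitosis list 2 lower and 0 higher, and without B-CKO replicate 3 the latter had 0 and 4.

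Growth and metabolism lists also held 0 calls. Their counts stand against 4.29% lower and 3.87% higher over all genes at an unadjusted p under 0.05. Of all 9857 genes, 4323 were positive (3437 with TPM, 4922 with median ratio scaling). Of 79 cytosolic ribosomal protein genes 75 were positive, with a median of 0.07 and 0 genes at an unadjusted p under 0.05 in either direction, and without B-CKO replicate 3 the median was 0.01 with 44 positive. The 75 respiratory chain subunits had a median of 0.04 (57 positive, 1 higher), the 24 glycolysis and glucose uptake genes 0.07 (1 lower, 1 higher) and the 28 nucleotide synthesis genes -0.03 (0 lower, 0 higher). The 33 genes around mTORC1 had a median of 0.0013, with *Flcn* lower (-0.18) and *Sesn1* higher (0.24), and the 22 heme synthesis and breakdown genes had -0.01 (1 lower, 1 higher). The 28 unfolded protein response genes had a median of -0.00077 with 1 higher, and the 24 ER translocation genes 0.02 with 0 in either direction. Survival genes of the BCL2 family (14 genes) had 2 lower, *Mcl1* (-0.15) and *Bcl2l1* (-0.17), against 4.29% of all genes, and these were 0 in the fit of all 18 libraries and 1 without CON replicate 3, B-CKO replicate 1 or B-CKO replicate 2. MHC class I and class II genes (20 and 16 genes) had medians of -0.0016 and -0.0030 and 0 genes at an unadjusted p under 0.05. Single libraries moved these small counts. Without B-CKO replicate 2 the respiratory chain list had 11 higher (median 0.09), the ribosomal list 2 higher, the ER list 2 higher and the mTORC1 list 4 lower and 4 higher. Without CON replicate 2 the unfolded protein response list had 4 lower (median -0.07) and the ER list 3 lower (median -0.02). Without CON replicate 3 the respiratory chain list had 3 higher, the ER list 2 higher (median 0.09) and the nucleotide list 2 lower. Without B-CKO replicate 3 the MHC class I and class II lists had 3 and 2 lower, the respiratory chain list had a median of 0.0080 with 44 of 75 positive, and the nucleotide list a median of 0.01 with 18 of 28 positive. Without CON replicate 1 the glycolysis median was 0.01.

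Most markers of other cells were below a mean of 1 FPKM, and some moved with genotype. Of 20 T and NK cell markers in the table, 4 reached a mean of 1 FPKM and 2 were at 0 in all 6 libraries, and their summed level was 75 to 92.2 FPKM in CON and 64.6 to 89.2 FPKM in B-CKO libraries. *Lck*, named above, is one of these. Myeloid markers (6 of 27 compared, 8 at 0 in all libraries) summed to 48.2 to 55.3 FPKM in CON and 41.4 to 47.6 FPKM in B-CKO libraries. Erythroid and megakaryocyte markers (3 of 17, 6 at 0) summed to 17.8 to 18.8 and 19.0 to 23.8 FPKM, and dendritic and stromal markers (3 of 16, 3 at 0), which include *Bst2*, to 118 to 127 and 133 to 151 FPKM. Their part in the differences named here was not tested.

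The 5 called genes described above were also lower in B-CKO cells at the earlier time points, measured in libraries of their own. At 24 h the log2 fold changes were -1.94 for *Cdca7*, -1.31 for *Ostc*, -1.12 for *Taf6*, -0.67 for *Cdc40* and -0.46 for *Rnf187*, each with a limma adjusted p under 0.05, the largest being 0.0114 for *Cdc40*. At 0 h they were -1.88, -0.83, -0.68, -0.70 and -0.57 in the same order, each with a limma adjusted p of 0.12 or more. The change of the genotype difference from 24 h to 48 h had an adjusted p of 0.709 or more for each of the 5. From 0 h to 48 h it was 1 for each.

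**Figure D5:**
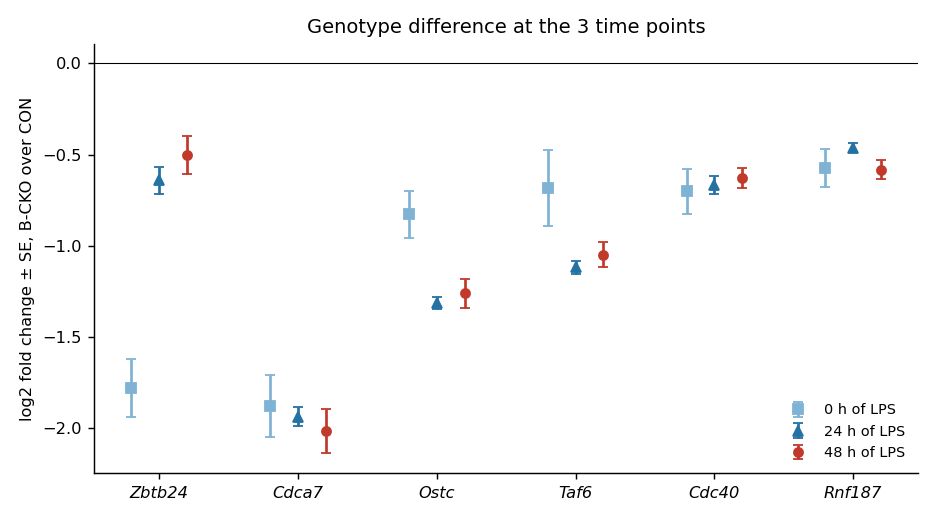
Log2 fold change of B-CKO over CON with its SE at 0 h, 24 h and 48 h of LPS for *Zbtb24* and 5 called genes, each time point fitted on its own 6 libraries (n = 3 per group). All values lie below 0, *Ostc* and *Taf6* stand at -0.83 and -0.68 at 0 h and lower later, and *Zbtb24* stands at -1.78, -0.64 and -0.50.

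For *Zbtb24* the CON mean was 45.4 FPKM at 0 h and 15.2 FPKM at 48 h, against 12.5 and 10.4 FPKM in B-CKO cells. Its genotype difference was smaller at 48 h than at 0 h by 1.28 (SE 0.20, limma adjusted p = 0.243). Across the table, the genotype difference changed from 24 h to 48 h for 0 of 15844 (0%) at an adjusted p under 0.05 in limma, with 1158 at an unadjusted p under 0.05, and from 0 h to 48 h for 0 of 16257 (0%), with 422. A fit of all 18 libraries together gave 3 calls for the latter, *Zbtb24*, *Col5a3* and *4930486L24Rik*.

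Several genes and lists described above had other values at the earlier times. On the log2 fold change scale, *Nsdhl* stood at -0.04 (24 h) and -0.02 (0 h), *Gstt1* at 0.07 and 0.10, and *Rgs16* at 0.07 and 0.15, whereas *Gbp2* stood at 0.41 and 0.44. The first 3 genes were thus near even before 48 h, and *Gbp2* leaned the same way throughout. The 24 cholesterol synthesis genes had a median of 0.07 at 24 h (20 positive) and -0.05 at 0 h (8 positive). Of all compared genes, 4646 of 9857 were positive at 24 h and 4810 of 9855 at 0 h. MHC class II genes, with a median of -0.0030 at 48 h, had -0.30 at 24 h, where 0 of 16 were positive, and DNA replication genes had 0.16 at 24 h, where 42 of 44 were positive. None of these lists held a gene whose change from 24 h to 48 h had an adjusted p under 0.05, the smallest being 0.399.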

How the data were processed

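RNA-seq values of purified splenic B cells were taken from 1 table of 18 libraries, of which the 6 at 48 h of LPS (3 CON and 3 B-CKO) were compared, and columns of other series numbered 0. The labels give total RNA and 2x150 paired-end sequencing on an MGI2000 instrument. The authors mapped reads to mm10 with bowtie2, used Cufflinks and RSEM for abundance, and deposited 16545 genes as FPKM values, scaled by them for transcript length and library size. The submitters' processing notes also name BWA and DESeq2, with versions not given. FPKM are not counts, so the DESeq2 test of the study was not used, fragment counts are unknown, and detection limits are not given.

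Group differences were fitted on log2(FPKM + 1) in R 4.3.3 by limma 3.58.1 (lmFit, and eBayes with a trend). All 15210 genes detected in at least 1 of the 6 libraries entered, with Benjamini-Hochberg adjustment and a threshold of 0.05. A pseudocount of 1 understates the change of low genes. The fit was tested on simulated data first. Changes of the genotype difference over time were interaction contrasts over the 12 libraries of both times, without a term for the mouse in the main fit. Gene IDs were matched to symbols for 16512 genes through RefSeq. Named genes were *Zbtb24*, the calls, the 10 next genes by p in each direction without overlap between groups, up to 4 genes by p and 4 defining genes of each of 39 lists, and up to 4 neighbours of *Zbtb24*. A called gene and some further results are not reported here. The genes and lists were chosen with earlier results of these data known. Motifs were searched and figures drawn in Python 3.11.15 with pandas 2.3.3 and matplotlib 3.10.9. Alternatives were a pseudocount of 0.1, other filters, TPM, median ratio scaling, no trend, a replicate block, all 18 libraries in 1 fit, and leaving out each library.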

Additional observations from a re-analysis of the deposited data

How the results depend on the processing

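The count of 7 genes called at 48 h was 29 with only genes of at least 1 FPKM (17 lower, 12 higher), 19 without a filter, 11 in a fit of all 18 libraries and 0 to 6 when 1 library was left out (0 without B-CKO replicate 1, 1 without CON replicate 1 or B-CKO replicate 2, 3 without CON replicate 3, 4 without CON replicate 2). It was 8 with a pseudocount of 0.1 or TPM, 7 with median ratio scaling and 5 without the trend. Genes of the lists among the calls numbered 5, and 12 with only genes of at least 1 FPKM, and 0 to 4 when 1 library was left out. The 29 calls of the narrower fit became 7 to 30 in leave-outs added after seeing the data (7 without B-CKO replicate 1, 9 without CON replicate 1, 13 without CON replicate 3), of which *Cdc40*, *Cdca7*, *Gbp2*, *Ostc*, *Rnf187* and *Taf6*, among others, passed in all 6. Adjusted p ranged over the 15 alternatives from 2.76e-08 to 0.0833 for *Cdca7*, 5.29e-07 to 0.0833 for *Ostc*, 1.11e-05 to 0.127 for *Taf6*, 0.000899 to 0.267 for *Cdc40* and 0.000358 to 0.263 for *Rnf187*. *Fgf22* gave values in 13 of them and passed in 4.

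With the replicate block, 3 genes were called, 3 of them in the lists, and the block joined to the 1 FPKM filter gave 116 (57 lower, 59 higher), 23 of them in the lists. The deviations of same-numbered CON and B-CKO libraries from their group means correlated at -0.035, 0.21 and 0.24 across genes. Those of libraries with unlike numbers correlated at -0.34 to 0.18. These values do not settle whether a number pairs mice. The labels do not say so either, and the main fit took no pairs. The block took the limma adjusted p of *Taf6*, *Cdc40*, *Rnf187* and *Fgf22* to 0.127, 0.267, 0.248 and 0.324. At an unadjusted p under 0.05, the block gave 3 higher oligosaccharyltransferase genes, 2 lower splicing genes and 6 higher respiratory chain genes, against 0, 1 and 1 without it. The change of the genotype difference from 0 h to 48 h gave 3 calls in the fit of all 18 libraries and 0 otherwise, and that from 24 h to 48 h gave 0 in each alternative.

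Of 76 genes named, 74 kept their sign in each alternative that gave a value. Left-out values ranged from -0.19 to 0.018 for *Dnmt3b* and from -0.15 to 0.044 for *Hells*, each positive only without B-CKO replicate 3. The causes of these shifts were not tested. With 3 libraries a group and no fragment counts, small differences and genes below 1 FPKM are the least certain.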
